A study of Mus musculus with 12 samples.

Results

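The genes described here encode 7 acute-phase proteins measured in colon RNA: the serum amyloids Saa1, Saa2 and Saa3, lipocalin-2 (Lcn2), haptoglobin (Hp), leucine-rich alpha-2 glycoprotein (Lrg1) and ceruloplasmin (Cp). They were taken by symbol from the 54532 genes of the count table, and all 7 were among the 24102 genes with enough signal to be tested, Saa2 only through its level in colitic libraries. RNA sequencing was done on whole colon of 12 C57BL/6N-background mice, 6 to 8 weeks old, each mouse giving 1 library and each of 4 groups holding 3 mice. Untreated Tmem173fl/fl mice carried a floxed Tmem173 gene, which encodes STING, and no Cre. Untreated Tmem173iΔmye mice carried the same floxed gene together with Lyz2-Creert2, a tamoxifen-inducible Cre that acts in myeloid cells. Colitic mice of each genotype were given dextran sulfate sodium (DSS), a polymer toxic to colon epithelium, at 2.5% to 3% in drinking water over 7 days, and plain water for the last day. All 4 groups, controls included, had 5 tamoxifen injections. The comparisons ask how myeloid loss of STING bears on the colon's response to DSS.

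Acute-phase proteins are secreted in quantity during infection and injury. The liver is their best known source, where interleukin-6 acts through STAT3, and interleukin-1 through NF-κB and C/EBP factors, to switch on their genes. Several are also made locally by epithelium, fibroblasts, macrophages or neutrophils, and in gut they are known for binding retinol and lipids (serum amyloids), for withholding iron from bacteria by capturing their siderophores (Lcn2), for binding free haemoglobin (Hp), for oxidising iron and carrying copper (Cp) and for modulating TGF-β signalling in vessels (Lrg1).

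Library totals lay between 13823237 and 18718915 counts. Tmem173 itself differed between colitic genotypes by a log2 fold change of -0.28 (SE 0.26, edgeR adjusted p 0.602) and between untreated ones by -0.21 (SE 0.22, edgeR adjusted p 1), so a loss was not detectable in counts per gene of whole colon. Xist was at 1225 to 1839 CPM in 3 libraries (replicate 3 of each untreated group and replicate 5 of the colitic Tmem173iΔmye group) and at 0.20 to 0.54 CPM in the other 9, and the male-specific Ddx3y was at 0 in those 3. Colitic Tmem173iΔmye replicate 5 was thus the only colitic library of that kind, and the fold changes of the 7 genes that involve it, and their order of abundance, are given with and without it. Exocrine pancreas markers, which colon does not make, summed to between 103 and 11460 CPM and varied within every group. In bulk RNA, fewer cells of a type and less RNA per cell cannot be told apart.

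The 3 serum amyloid genes lie with Saa4 in 42316 bases of chromosome 7 (GRCm38). Saa3 (ENSMUSG00000040026) spans 46711998 to 46715700 and Saa1 (ENSMUSG00000074115) 46740497 to 46742980, both on the minus strand, and Saa2 (ENSMUSG00000057465) spans 46751790 to 46754313 on the plus strand. Saa1 and Saa2 are near-identical copies pointing away from each other, and Saa3 is a diverged one. The RefSeq sequence just before each start (GRCm38.p6, gene strand, annotated exons removed) is shown because these neighbours responded very differently to DSS, and capitals mark matches to the C/EBP letters TTGCNNAA or TTNNGCAA and to an NF-κB pattern (GGG and CC, or GG and CCC, with any 5 bases between), searched on both strands.
Saa1, chr7:46742981-46743230: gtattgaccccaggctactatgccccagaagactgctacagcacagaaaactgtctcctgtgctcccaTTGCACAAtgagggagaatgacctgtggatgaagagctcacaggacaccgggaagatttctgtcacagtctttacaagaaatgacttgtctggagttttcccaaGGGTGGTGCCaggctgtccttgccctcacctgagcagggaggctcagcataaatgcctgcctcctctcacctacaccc
Saa2, chr7:46751583-46751789: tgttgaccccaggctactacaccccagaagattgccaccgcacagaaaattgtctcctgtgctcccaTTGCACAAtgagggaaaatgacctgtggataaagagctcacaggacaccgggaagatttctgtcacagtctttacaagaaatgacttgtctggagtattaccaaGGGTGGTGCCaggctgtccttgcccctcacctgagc
Saa3, chr7:46715701-46715926: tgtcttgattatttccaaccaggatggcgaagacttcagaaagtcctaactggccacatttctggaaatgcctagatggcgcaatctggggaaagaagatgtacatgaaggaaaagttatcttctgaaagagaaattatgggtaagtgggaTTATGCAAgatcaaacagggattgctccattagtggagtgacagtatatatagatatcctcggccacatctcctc

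Over the 250 bases before the start, Saa1 and Saa2 were identical at 94.8% of aligned positions, against 52.2% for Saa1 and Saa3. Saa1 and Saa2 held the same C/EBP letters at positions -182 and -183 from the start and the same NF-κB letters at -78 and -79, and Saa3 held a different C/EBP match at -99. Lcn2 had a C/EBP match at -216 and an NF-κB match at -102, and Lrg1 an NF-κB match at -34. For Cp, RefSeq gives 2 starts, and the second had a C/EBP match at -70 and an NF-κB match at -146. These windows were searched whole, and the matches of Lrg1 and Cp and the C/EBP match of Lcn2 overlap stretches annotated as exon. The STAT letters TTCNNNGAA were in none of these windows. Of 32851 RefSeq windows of 300 bases, 10.8% held the C/EBP letters, 8.3% the STAT letters and 50.8% the NF-κB pattern, so an NF-κB match is found in about every other window. Coding transcripts of Saa1 and Saa2 were identical at 93.9% of aligned positions, and 31.1% of the 50-base stretches of Saa1 transcripts and 8.96% of the 100-base ones also occur in Saa2. How reads that fit both were counted is not stated, so the split of reads between Saa1 and Saa2 is uncertain, while only 0.357% of 50-base stretches of Saa1 occur in Saa3. Cp (ENSMUSG00000003617, chromosome 3, 19957054 to 20009145) overlaps Hps3 on the other strand and the use of strand in counting is not stated. Hps3 stood at 19.8 to 36.4 CPM over the 12 libraries. Lcn2 is ENSMUSG00000026822 (chromosome 2, 32384633 to 32388252), Hp ENSMUSG00000031722 (chromosome 8, 109575128 to 109579172) and Lrg1 ENSMUSG00000037095 (chromosome 17, 56119678 to 56122001).

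In untreated colon, Saa1 was the abundant member. Per length (FPKM), Saa1 stood at 72.3 ± 17.8 in Tmem173fl/fl and 81.5 ± 13.1 in Tmem173iΔmye colon (SD, n = 3), above every library of the next gene, Hp, at 4.59 ± 1.81 and 17.4 ± 9.8 FPKM. Lrg1, Cp and Saa3 followed with means between 1.40 and 4.58 FPKM, each overlapping its neighbour in the order, then Lcn2 at 0.858 ± 0.0875 and 1.18 ± 0.317 FPKM, and Saa2 came last at 0.0477 and 0.0311 FPKM. The 7 genes together took 0.0166% to 0.0271% of an untreated library's counts, and Saa1 made up 66.2% to 89.4% of them.

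DSS changed that order in Tmem173fl/fl colon. Saa3, Lcn2, Hp, Lrg1 and Cp rose, by 26.7-fold (Cp) to 337-fold (Saa3) in mean CPM. Saa1 did not pass the test. Saa2 was called higher on few counts, and since it reached the filter only through colitic libraries this call is not counted with the other 5. Among all genes tested 14.9% were called higher and 7.61% lower in this comparison, where called means that the log2 fold change was 1 or more in size and the adjusted p (Benjamini-Hochberg) below 0.05. The median log2 fold change of the 7 was 5.35, against 0.03 for all genes tested. For Saa3, Lcn2, Hp, Lrg1 and Cp the colitic and untreated libraries did not overlap, which held for 49.3% of all genes tested. The share of the 7 genes in a library's counts reached 0.219% to 0.494%, of which Saa1 held 2.24% to 9.13%.

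Saa3, the serum amyloid known from macrophages and inflamed tissue, was at 6.51, 2.44 and 2.32 CPM in the untreated Tmem173fl/fl libraries (replicates 1 to 3) and at 1109, 1939 and 752 CPM in the colitic ones. The log2 fold change was 8.48 (SE 0.56, edgeR adjusted p 4.39e-06), and 9.12 without untreated replicate 1. Saa1 moved from 234, 144 and 172 CPM to 141, 98.0 and 188 CPM, with overlapping groups. Its log2 fold change was -0.30 (SE 0.25, edgeR adjusted p 0.386). Saa2 rose from 4, 1 and 0 counts to 21, 26 and 30 counts (edgeR adjusted p 0.00458). At 5 counts in all, the untreated group was at the floor, taken as 9 or fewer counts over 3 libraries, against which a fitted fold change is unreliable. The ratio of counts at equal depth was 12.5 (95% exact interval of counting error alone 5.12 to 39.5), and the fitted log2 fold change of 3.64 moved to 5.26 without untreated replicate 1 and 3.04 without replicate 3. Saa2 held 0.801% to 1.24% of the reads of Saa1 and Saa2 together in these colitic libraries. With the reads of both genes summed, the log2 fold change was -0.29 (edgeR adjusted p 0.409), close to the value of Saa1 alone. Within a library, Saa3 counts were 0.0134 to 0.0278 times those of Saa1 in untreated Tmem173fl/fl colon and 4.0 to 19.8 times in colitic colon.

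Lcn2, Hp, Cp and Lrg1 rose as well. Lcn2 was at 2.05, 2.44 and 2.44 CPM without DSS and at 858, 1019 and 424 CPM with it (log2 fold change 8.44, SE 0.39, edgeR adjusted p 7.05e-07). Hp went from 4.70, 10.6 and 7.33 CPM to 632, 668 and 324 CPM (log2 fold change 6.23, SE 0.39, edgeR adjusted p 3.21e-06). Cp went from 12.1, 12.9 and 23.0 CPM to 460, 541 and 281 CPM, a log2 fold change of 4.80 (SE 0.34, edgeR adjusted p 6.76e-06). For Saa3, Lcn2, Hp and Cp alike, replicate 3 was the lowest and replicate 2 the highest of the 3 colitic Tmem173fl/fl libraries. Lrg1 went from 2.12, 3.79 and 2.63 CPM to 138, 110 and 87.1 CPM (log2 fold change 5.35, SE 0.26, edgeR adjusted p 8.74e-07), with replicate 1 the highest. Per length, Saa3 (491 ± 234 FPKM), Hp (340 ± 118) and Lcn2 (295 ± 117) were now the most abundant and overlapped each other, Lrg1 (80.0 ± 18.1), Saa1 (58.1 ± 18.6) and Cp (45.1 ± 13.9) followed, and Saa2 stayed last at 0.591 ± 0.203 FPKM (SD, n = 3).

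**Figure D1:**
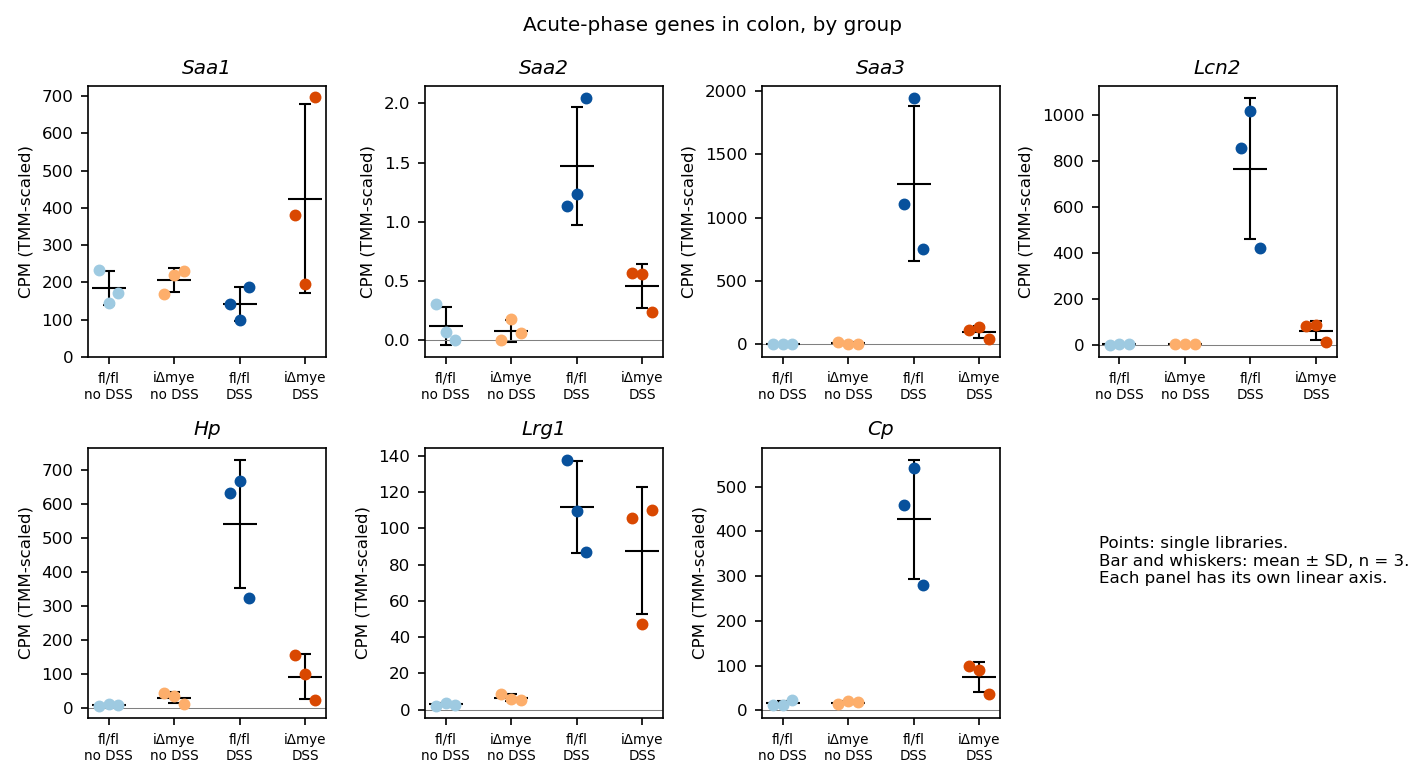
Levels of the 7 acute-phase genes in CPM (linear axis, scaled separately in each panel) in the 4 groups. Points are single libraries and the bar with whiskers is the mean ± SD of 3. Saa3, Lcn2, Hp and Cp are highest in the colitic Tmem173fl/fl group, Lrg1 is high in both colitic groups, and Saa1 is highest in 2 colitic Tmem173iΔmye libraries (381 and 697 CPM).

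In Tmem173iΔmye colon 4 of the 7 genes rose with DSS, Lcn2, Lrg1, Saa3 and Cp, where 1.48% of all genes tested were called higher. The median of the 7 was 2.40, or 2.11 with Saa2 at the lower end of its interval below, against 0.02 for all genes tested, and for the 4 called genes the colitic and untreated libraries did not overlap (21.5% of all genes tested). Lcn2 went from 4.01, 3.17 and 2.28 CPM to 83.2, 86.8 and 14.3 CPM in replicates 1, 2 and 5 (log2 fold change 4.28, SE 0.60, edgeR adjusted p 0.00809). Saa3 went from 17.0, 3.05 and 3.07 CPM to 118, 137 and 41.6 CPM (log2 fold change 3.67, SE 0.69, edgeR adjusted p 0.026), and the value was 5.0 without untreated replicate 1. Cp went from 14.3, 20.1 and 17.9 CPM to 98.3, 89.6 and 37.3 CPM (log2 fold change 2.11, SE 0.34, edgeR adjusted p 0.0145). In all 3 genes replicate 5 was far below the other colitic libraries but above every untreated one. Without it the values were 4.78 for Lcn2, 4.07 for Saa3 and 2.46 for Cp, each still called by edgeR.

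Lrg1 rose in this genotype from 8.56, 6.05 and 5.17 CPM to 106, 47.3 and 110 CPM (log2 fold change 3.73, SE 0.36, edgeR adjusted p 0.000829). Here replicate 5 was the highest library, and the value was 3.57 without it. Hp stood at 42.4, 32.7 and 10.8 CPM without DSS and at 154, 99.4 and 20.8 CPM with it, replicate 5 falling within the untreated range (log2 fold change 1.67, SE 0.63, edgeR adjusted p 0.23). Without replicate 5 the Hp value was 2.18 (edgeR adjusted p 0.00917). Saa1 was at 169, 219 and 231 CPM and then at 381, 196 and 697 CPM, with overlapping groups (log2 fold change 1.04, SE 0.38, edgeR adjusted p 0.216). It was 0.52 without replicate 5 (edgeR adjusted p 0.307). Saa2 had 0, 3 and 1 counts without DSS, again at the floor, and 8, 9 and 4 with it, a ratio of 5.61 (95% counting interval 1.89 to 22.5, edgeR adjusted p 0.286). Without replicate 5 the ratio was 7.03 (2.29 to 28.7, edgeR adjusted p 0.157). The count of 4 genes fell to 1 (Lrg1) when untreated replicate 2 or 3 was left out and to 2 (Saa3 and Lrg1) without untreated replicate 1, and was 5 without colitic replicate 5.

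Between the untreated genotypes no gene was called by edgeR (0.0% of those tested), with 720 genes at an unadjusted p under 0.05 and 3 called by DESeq2. The libraries of the genotypes did not overlap for 2 of the 7 genes, against 7.35% of all genes tested. These were Hp, which averaged 7.55 ± 2.97 CPM (Tmem173fl/fl) and 28.6 ± 16.2 CPM (Tmem173iΔmye; log2 fold change 1.92, SE 0.40, edgeR adjusted p 1), and Lrg1, at 2.85 ± 0.856 and 6.59 ± 1.76 CPM (1.21, SE 0.31, edgeR adjusted p 1; SD, n = 3). Saa2 was at the floor in both genotypes, so no fold is given. The other 4 differed by log2 fold changes from 0.13 for Cp to 1.05 for Saa3, each with an edgeR adjusted p of 1, and the value for Saa3 came from replicate 1 at 17.0 CPM, being -0.27 without it. Haemoglobin and other red blood cell markers summed to 4.07 to 6.59 CPM in untreated Tmem173fl/fl and 4.98 to 60.4 CPM in untreated Tmem173iΔmye colon. Adipocyte markers summed to 12.4 to 107 CPM and 97.6 to 223 CPM in the same order, with Fabp4, the fatty acid carrier, at a log2 difference of 1.62 (SE 0.42) and Cidec, a lipid droplet protein, at 0.95 (SE 0.33), each with an edgeR adjusted p of 1. The part of either cell type in the Hp and Lrg1 values was not tested.

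Between colitic genotypes, Saa3, Lcn2 and Cp were lower in Tmem173iΔmye than in Tmem173fl/fl colon, at 7.78%, 8.01% and 17.6% of the Tmem173fl/fl mean. Of all genes tested 1.99% were called lower. The median of the 7 was -2.52, against 0.02 for all genes tested. Saa3 averaged 1267 ± 609 CPM (Tmem173fl/fl) and 98.6 ± 50.3 CPM (Tmem173iΔmye) (log2 fold change -3.70, SE 0.52, edgeR adjusted p 0.0167). The lowest colitic Tmem173fl/fl library, at 752 CPM, was thus above the highest Tmem173iΔmye one, at 137 CPM. Lcn2 averaged 767 ± 307 and 61.4 ± 40.9 CPM (log2 fold change -3.65, SE 0.66, edgeR adjusted p 0.0293), and Cp 427 ± 133 and 75.1 ± 33.0 CPM (log2 fold change -2.52, SE 0.40, edgeR adjusted p 0.0215; SD, n = 3 each). Without replicate 5 the values were -3.33, -3.19 and -2.19 for Saa3, Lcn2 and Cp, each still called by edgeR.

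The other 4 genes did not pass the test between colitic genotypes. Hp averaged 541 ± 189 and 91.3 ± 66.9 CPM, 16.9% of the Tmem173fl/fl mean, without overlap (log2 fold change -2.57, SE 0.63, edgeR adjusted p 0.0683). It was -2.10 when replicate 5 was dropped (edgeR adjusted p 0.0392) and -3.20 without Tmem173iΔmye replicate 1 (edgeR adjusted p 0.0436), and was then called. Saa2, at 77 counts in the 3 Tmem173fl/fl libraries and 21 in the 3 Tmem173iΔmye ones, had a log2 fold change of -1.68 (SE 0.51, edgeR adjusted p 0.117), and -1.37 without replicate 5. Saa1 had the opposite sign, at 142 ± 45.0 against 425 ± 253 CPM (log2 fold change 1.58, SE 0.44, edgeR adjusted p 0.0952), and the groups did not overlap by a narrow gap, 188 CPM against 196 CPM. Its value without replicate 5 was 1.02 (edgeR adjusted p 0.18). Lrg1 averaged 112 ± 25.4 and 87.7 ± 35.0 CPM with overlapping groups (log2 fold change -0.35, SE 0.33, edgeR adjusted p 0.597; SD, n = 3 each), and its value was -0.55 without replicate 5. In all, 6 of the 7 genes had groups that did not overlap, against 26.8% of all genes tested. The count of 3 called genes went to 0 without colitic Tmem173fl/fl replicate 1 or colitic Tmem173iΔmye replicate 2, to 1 (Saa3) without colitic Tmem173fl/fl replicate 2, and to 4 without Tmem173iΔmye replicate 1 or 5.

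**Figure D2:**
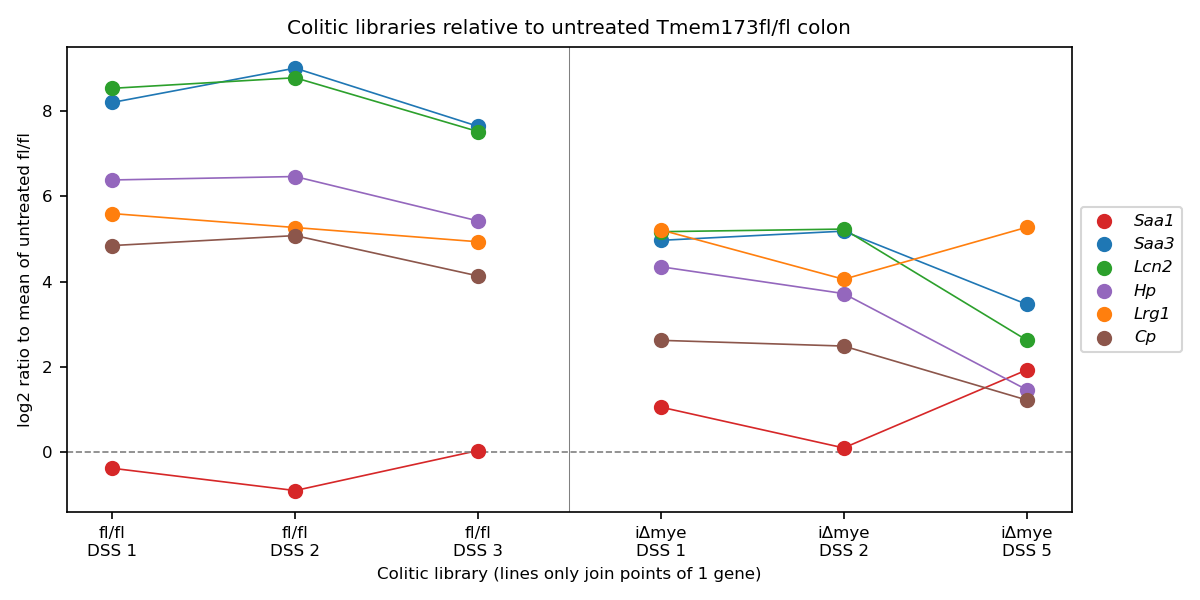
Log2 ratio of each colitic library's CPM to the mean of untreated Tmem173fl/fl colon, for 6 genes (Saa2 is left out because of its low counts). Points are single libraries and lines join the points of 1 gene. The 4 genes Saa3, Lcn2, Hp and Cp are at their lowest in Tmem173iΔmye replicate 5, where Saa1 (697 CPM) and Lrg1 (110 CPM) are at the highest of their group.

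The test of whether DSS acted differently in the 2 genotypes, the genotype by DSS interaction over all 12 libraries, called 4 of the 7 genes, all in the direction of a smaller DSS response in Tmem173iΔmye colon, where 1.61% of all genes tested were called in that direction. The interaction was -4.73 for Saa3 (SE 0.95, edgeR adjusted p 0.02), -4.49 for Hp (SE 0.87, edgeR adjusted p 0.0167), -4.09 for Lcn2 (SE 0.75, edgeR adjusted p 0.0134) and -2.63 for Cp (SE 0.50, edgeR adjusted p 0.0156), on the log2 scale. Lrg1 was at -1.55 (SE 0.45, edgeR adjusted p 0.0857) and Saa1 at 1.41 (SE 0.52, edgeR adjusted p 0.169). Saa2 (edgeR adjusted p 0.713) gets no value here, since both untreated groups were at the floor. For Hp and Lrg1 the interaction includes the higher level of untreated Tmem173iΔmye colon. Between untreated genotypes Hp differed by 1.92 and Lrg1 by 1.21, and between colitic ones by -2.57 and -0.35, none of them called. The count was 2 without untreated Tmem173fl/fl replicate 1 (Saa3 and Lcn2) or 3 (Lcn2 and Cp), and 4 without colitic Tmem173iΔmye replicate 5, where Saa3, Hp, Lcn2 and Cp stood at -4.37, -4.03, -3.64 and -2.32, Lrg1 at -1.76 and Saa1 at 0.84. The Saa3 value was -5.38 without untreated Tmem173fl/fl replicate 1 and -3.40 without untreated Tmem173iΔmye replicate 1, and the Hp value -5.09 without colitic Tmem173iΔmye replicate 1, each still called by edgeR. In the 9 libraries with low Xist, a choice made after the data were seen, it was 3, Saa3 then standing at -4.50 (edgeR adjusted p 0.063). The pairwise comparisons share libraries with each other and with this test, so they are not independent of one another.

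**Figure D3:**
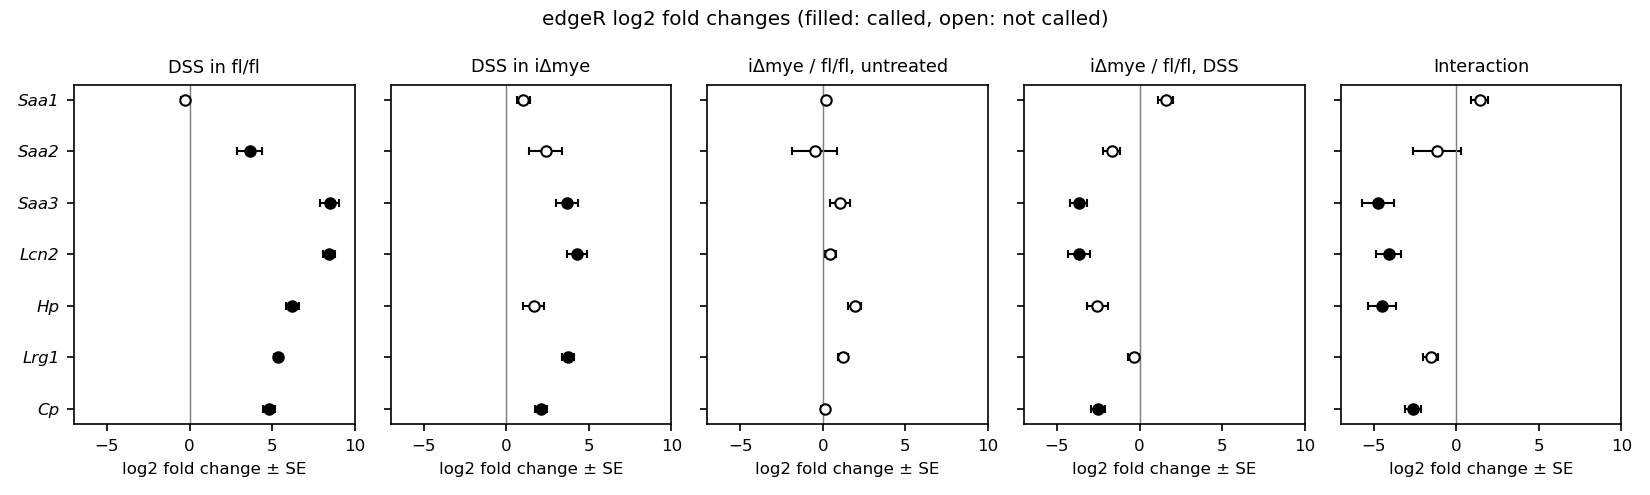
Log2 fold changes with their SE from edgeR for the 7 genes in the 5 comparisons (3 libraries per group, all 12 for the interaction). Filled circles were called and open circles were not. The Saa2 points for DSS, for genotype without DSS and for the interaction are fitted on untreated groups of 5 and 4 counts. Saa1 is the only gene left of 0 for DSS in Tmem173fl/fl colon (-0.30) and the only one right of 0 between colitic genotypes (1.58).

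As a result of these shifts the order of abundance differed between the colitic groups. In colitic Tmem173iΔmye colon, Saa1 was first at 169 ± 99.0 FPKM, above every library of the second, Lrg1, at 61.4 ± 24.5 FPKM. Saa1 was the highest of the 7 genes within each of these libraries. Its separation from every library of the second gene, and the place of Lrg1 before Hp, rest on replicate 5. There Saa1 was at 274, Lrg1 at 76.3 and Hp at 12.7 FPKM. In replicates 1 and 2 alone Saa1 was at 154 and 78.1 FPKM, overlapping Hp at 95.6 and 61.0 FPKM, which then came before Lrg1 at 74.9 and 33.1 FPKM. Hp (56.4 ± 41.7), Saa3 (37.4 ± 19.2), Lcn2 (23.2 ± 15.5) and Cp (7.77 ± 3.47) followed, each overlapping its neighbour in that order, and Saa2 was last at 0.18 ± 0.0743 FPKM (SD, n = 3). The 7 genes took 0.0638% to 0.0954% of the counts, with Saa1 at 29.9% to 75.7% of these. Saa3 counts were 0.309, 0.696 and 0.0597 times those of Saa1 in replicates 1, 2 and 5.

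Profiles over the 12 libraries were compared as the root mean square difference of log2(CPM + 0.5), each gene centred on its own mean, among 16157 genes with a mean of at least 1 CPM. This describes likeness and shares the libraries with all results above. Saa3 and Lcn2 were 0.632 apart, Lcn2 being the second nearest of all genes to Saa3. Near both were Serpina3m, a protease inhibitor, and Mmp10, a matrix metalloproteinase, and Csf3, the growth factor of granulocytes, was the third nearest to Lcn2 at 0.552. The nearest genes to Cp were Spon1 (0.296), Crispld2 (0.339) and Cxcl13 (0.378), a B cell chemokine, and those to Hp were Mmp9 (0.772), Lgi2 and Kcnj15. Lrg1 was nearest to Chil3 (0.468), a chitinase-like protein of macrophages and neutrophils, Chrdl2 and Prss22. Saa1 was 2.22 or more from Lrg1, Cp, Hp, Lcn2 and Saa3, reaching 3.61 for Saa3, and 1.12 from Saa2. Its nearest genes were Pglyrp1 (0.264), a peptidoglycan-binding antibacterial protein, Tff3 (0.267), the trefoil peptide of goblet cells, and Slc45a3 (0.288). Like Saa1, Tff3 averaged 308 and 362 CPM in the untreated groups, and with DSS 213 CPM (Tmem173fl/fl) and 558 CPM (Tmem173iΔmye). Saa2 was nearest to Cyth3, Tead4 and Slc7a8, which at its counts of 0 to 30 is of little weight.

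Of 20 other acute-phase genes, 17 could be tested, and 14 rose with DSS in Tmem173fl/fl colon (against 14.9% of all genes tested), among them the protease inhibitor Serpina3n (log2 fold change 6.09, SE 0.18) and Itih3 (6.02, SE 0.41). The pentraxin Ptx3 and the fibrinogen chain Fgg were also among the 4 largest fitted changes, but their untreated groups were at the floor, as were those of Orm3, Saa4, Fgb and Fga. Ptx3, Fgg, Saa4, Fgb, Fga and A2m, and Hpx and Hamp, which were not called, reached the filter only through colitic libraries. Of the 9 genes that did not need those libraries 8 rose. Ptx3 went from 7 to 2395 counts over 3 libraries, a ratio of 277 at equal depth (95% counting interval 134 to 690), and Fgg from 1 to 85 counts, a ratio of 68.8 (12 to 2750). In Tmem173iΔmye colon 5 rose, against 1.48% of all genes tested (Ptx3, Serpina3n, A2m, Itih3 and the complement component C3), or 3 of those 9. Between colitic genotypes 5 were lower in Tmem173iΔmye colon, against 1.99% of all genes tested, with edgeR adjusted p from 0.0181 to 0.0416. Ptx3 was lower by a log2 fold change of -3.22 (SE 0.66), Serpina3n by -2.04 (SE 0.40) and the protease inhibitor A2m by -1.78 (SE 0.32). Fgg and the fibrinogen chain Fgb were at the floor in colitic Tmem173iΔmye colon, with 2 counts against 85 and 6 against 150, or 2.74% (95% counting interval 0.327% to 10.2%) and 4.66% (1.68% to 10.4%) of the Tmem173fl/fl level. Both reached the filter only with the colitic Tmem173fl/fl libraries, as did Fga, and of the other 14 genes 3 were lower. The interaction passed for Itih3 only, 1 of 17 against 1.61% of all genes tested called in that direction. The list's medians were 3.98, 1.73 and -1.78 in these 3 comparisons, and 3.47, 1.51 and -1.79 with genes at the floor in 1 group taken at the end of their interval nearest to no change and those at the floor in both left out.

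Several cytokines that induce acute-phase genes rose in each genotype. In Tmem173fl/fl colon 8 of 12 rose with DSS (14.9% of all genes tested), among them Il11 (log2 fold change 8.69, SE 0.86) and Osm (5.51, SE 0.33). Untreated Il11 averaged only 0.231 ± 0.279 CPM (Tmem173fl/fl) and 0.241 ± 0.106 CPM (Tmem173iΔmye; SD, n = 3), which makes the size of its fold changes uncertain. Il6 and Il1f9, which encodes IL-36γ, were at the floor without DSS and went from 4 to 1268 and from 3 to 232 counts over 3 libraries, ratios of 257 (95% counting interval 100 to 944) and 62.6 (21.2 to 306). In Tmem173iΔmye colon 6 rose (1.48% of all genes tested), with Il11 at 5.28 (SE 0.49) and Il6 going from 2 to 217 counts, a ratio of 116 (31.7 to 964). Of the 6 cytokines that reached the filter without colitic libraries, which leaves out Il6, Il11 and Il1f9, 5 rose in Tmem173fl/fl and 4 in Tmem173iΔmye colon. In the colitic groups Il6 averaged 24.0 ± 14.5 CPM (Tmem173fl/fl) and 4.70 ± 0.705 CPM (Tmem173iΔmye) (SD, n = 3). Il11, Il1f9, Il6 and Osm were lower in colitic Tmem173iΔmye colon, 4 of 12 against 1.99% of all genes tested, by log2 fold changes of -3.27, -2.48, -2.36 and -2.09 (edgeR adjusted p 0.0296 to 0.0406). The interaction passed for 0 of the 12 by edgeR and by DESeq2, with 2 at an unadjusted p under 0.05.

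Among 20 receptors and transducers of these cytokines, 10 rose and 2 fell with DSS in Tmem173fl/fl colon, against 14.9% and 7.61% of all genes tested. The feedback inhibitor Socs3 rose by 4.13 (SE 0.20), the C/EBP factors Cebpb and Cebpd by 3.45 (SE 0.25) and 3.16 (SE 0.25), and the interleukin-1 receptor Il1r1 by 2.96 (SE 0.16) on the log2 scale. The 2 that fell were Il22ra2, the soluble IL-22 antagonist (-2.89, SE 0.42), and the interleukin-17 receptor chain Il17rc (-1.49, SE 0.16). In Tmem173iΔmye colon 7 rose (1.48% of all genes tested), among them Socs3 (2.55, SE 0.41) and the oncostatin M receptor Osmr (2.33, SE 0.22). Cebpb, Cebpd and Il1r1 were the 3 genes lower in colitic Tmem173iΔmye colon, against 1.99% of all genes tested (log2 fold changes -1.88, -1.68 and -1.28, edgeR adjusted p 0.0099 to 0.0291), and the interaction passed for these same 3 (1.61% of all genes tested).

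Receptors and partners of the 7 proteins, with related genes, were also followed. Of 18, 12 rose and 2 fell with DSS in Tmem173fl/fl colon, against 14.9% and 7.61% of all genes tested. Among those that rose were Mmp9, whose protein binds lipocalin-2 (log2 fold change 6.20, SE 0.32), haem oxygenase Hmox1 (4.94, SE 0.43), the haemoglobin-haptoglobin receptor Cd163 (4.45, SE 0.21) and the formyl peptide receptor Fpr1 (4.17, SE 0.41). The 2 that fell handle iron, the ferroxidase Heph (-1.12, SE 0.17) and the transferrin receptor Tfrc (-1.06, SE 0.16), while the iron exporter Slc40a1 was not called (0.58). Hmox1 was the 1 gene of them called in Tmem173iΔmye colon (1.46, SE 0.27, edgeR adjusted p 0.0237; 1.48% of all genes tested), where DESeq2 called 7. Hmox1, Cd163 and Lrp1 were lower in colitic Tmem173iΔmye colon (1.99% of all genes tested) by -3.10, -2.0 and -1.63 (edgeR adjusted p 0.0167 to 0.0495). The interaction passed for Hmox1, Cd163 and the lipoprotein receptor Scarb1, 3 of 18 against 1.61% of all genes tested called in that direction. Without DSS, 0 genes of these 4 lists passed between genotypes by edgeR or DESeq2, with 2, 0, 1 and 2 at an unadjusted p under 0.05 in the order the lists are given.

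Markers of cell types that could carry these transcripts moved too. The 10 neutrophil markers summed to 46.7 to 106 CPM over the untreated libraries, 471 to 786 CPM over the colitic Tmem173fl/fl ones and 210 to 330 CPM over the colitic Tmem173iΔmye ones, and 6 of the 10 were lower in the last, against 1.99% of all genes tested (5 of 9 without Camp, which reached the filter only with the colitic Tmem173fl/fl libraries). Fibroblast markers summed to 1142 to 1455, 7970 to 10150 and 2298 to 3368 CPM in the same order, and monocyte and macrophage markers to 163 to 242, 611 to 755 and 320 to 495 CPM. Colon epithelium markers summed to 19590 to 31200, 11120 to 17510 and 14230 to 23850 CPM. Endothelium markers summed to 90.7 to 115, 398 to 546 and 151 to 301 CPM, and red blood cell markers to 152 to 323 CPM in colitic Tmem173fl/fl against 23.8 to 29.0 CPM in colitic Tmem173iΔmye colon. Exocrine pancreas markers summed to 9457, 4870 and 608 CPM in colitic Tmem173fl/fl replicates 1 to 3 and to 11460, 125 and 222 CPM in colitic Tmem173iΔmye replicates 1, 2 and 5. The part of these cell types and tissues in the levels of Saa3, Lcn2, Hp, Cp and Saa1 was not tested. The 8 markers of hepatocytes, the classical source of these proteins, summed to 31.4 to 51.7 CPM over the untreated libraries, 57.8 to 97.2 CPM in colitic Tmem173fl/fl and 72.7 to 144 CPM in colitic Tmem173iΔmye colon, with Tat and Cyp2e1 giving most of it. Alb, the hallmark transcript of liver, had 57 counts over the 3 colitic Tmem173fl/fl libraries and 23 over the 3 colitic Tmem173iΔmye ones, against 219 and 178 in the untreated groups. Serpina1c was at the floor in every group, with 3 and 1 counts in the untreated groups and 0 in either colitic one, and was not tested. Not every hepatocyte marker fell. The apolipoprotein Apoa1 had 18 counts in untreated and 90 in colitic Tmem173fl/fl colon, against 13 and 3 in Tmem173iΔmye colon, and was lower in colitic Tmem173iΔmye colon by edgeR, and the fetuin Ahsg had 20 and 40 against 7 and 14 and did not pass there. Their part in the levels of the 7 genes was not tested. Of 7 markers tested, Tat and Cyp2e1 rose with DSS in Tmem173fl/fl colon and Ttr and Apoa2 fell, against 14.9% and 7.61% of all genes tested.

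**Figure D4:**
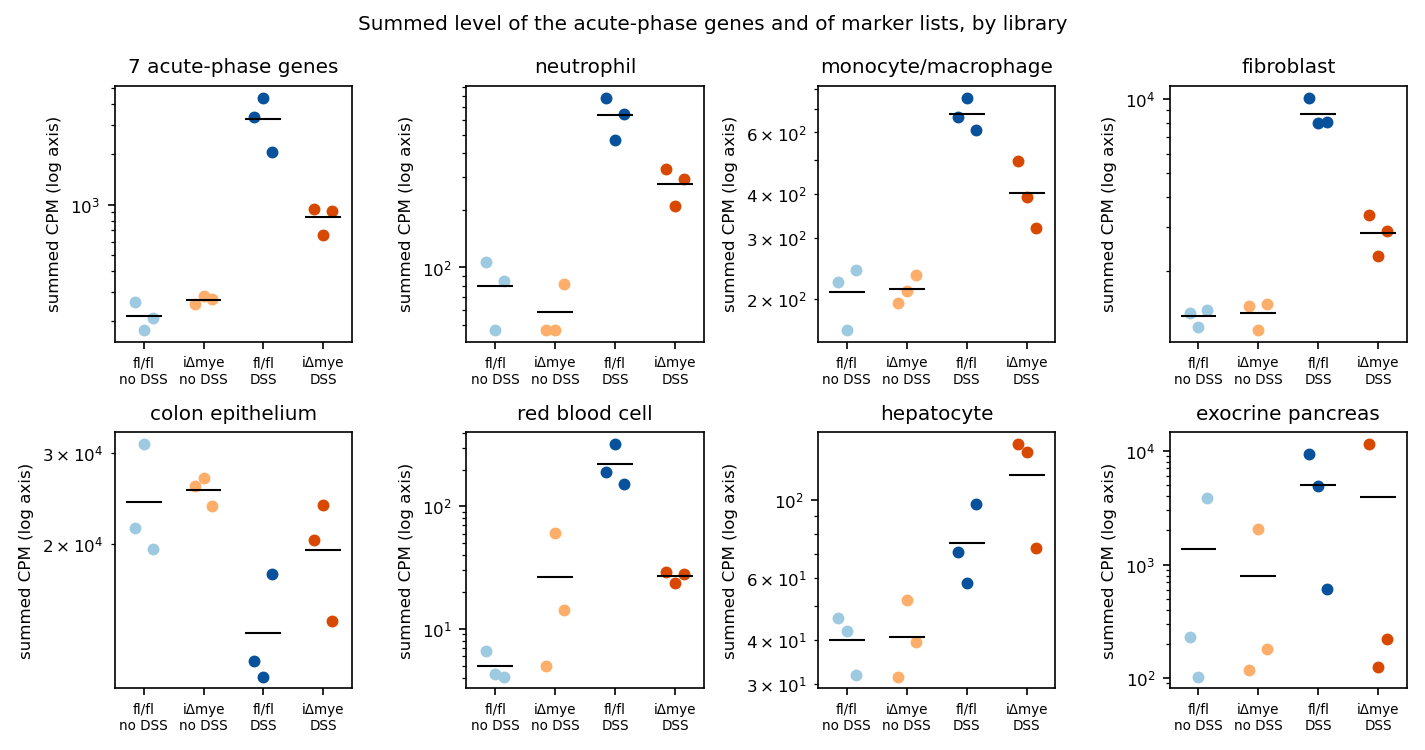
Summed CPM (log axis) of the 7 acute-phase genes and of 7 marker lists in each library, with points for libraries and a bar for the mean of 3. Neutrophil, macrophage and fibroblast sums are highest in colitic Tmem173fl/fl colon and between it and the untreated groups in colitic Tmem173iΔmye colon (for fibroblasts 2298 to 3368 CPM), and pancreas sums vary within every group.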

How the data were processed

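Total colon RNA of 12 mice was made into polyA libraries, and the authors deposited whole-number counts per gene and FPKM values (counts per gene length and depth) for each. The submitters' processing notes name fastp, HISAT2 2.0.5, featureCounts 1.5.0-p3, DESeq2 1.20.0 and GRCm38. The use of strand and of multi-mapping reads was not given in the sources used here. Groups came from the sample titles, and the titles number the colitic Tmem173iΔmye libraries 1, 2 and 5. The deposited fold changes, p-values and group means were not used.

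A gene had to reach 0.1 FPKM in 3 or more libraries to be tested, with edgeR 4.0.16 (quasi-likelihood, TMM scaling) in R 4.3.3. Each fit held only the compared groups, or all 12 libraries for the interaction. P-values were Benjamini-Hochberg adjusted over all 24102 genes. SE is the log2 fold change divided by the square root of F. CPM is the count relative to the TMM-scaled library total. Library totals of 13823237 to 18718915 counts set the counting error, and a gene with 9 or fewer counts over the 3 libraries of a group was taken as at the floor there. Ratios against such a group are of counts at equal depth, with a 95% exact (Clopper-Pearson) interval that covers counting error only. Each mouse is 1 library, so p-values measure the spread between mice.

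The members and gene lists were chosen with earlier results of these data known. From each list the count and up to 4 called genes of largest change are named. Where a count is 5 or fewer all its genes are, so that C3, A2m, Il22ra2, Il17rc, Heph and Tfrc, and with them Slc40a1, were named after their values were seen. For each member the 3 genes nearest in profile are named. Alternatives were DESeq2 1.42.0, limma 3.58.1 on log2(FPKM + 0.1) and log2(FPKM + 1), other scalings, filters and thresholds, 1 fit of all libraries, a replicate block, Saa1 and Saa2 summed, each library left out, and, added after the data were seen, libraries with Xist under 5 CPM alone. The fits were tested on simulated data. Sequences were read from RefSeq (6 of the 7 members matched) and GENCODE vM21 and aligned with Biopython 1.88. A planned protein comparison was not run.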

Additional observations from a re-analysis of the deposited data

Results flagged for a closer look

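The response to DSS differed between the genotypes by the interaction term of edgeR for 4 of the 7 acute-phase genes (1.61% of all genes tested were called in that direction), Saa3 (-4.73 on the log2 scale), Hp (-4.49), Lcn2 (-4.09) and Cp (-2.63). The same test picked out 7 of the 67 genes tested in the 4 related lists: the acute-phase protein Itih3 (-2.90), the C/EBP factors Cebpb (-2.27) and Cebpd (-1.53), the interleukin-1 receptor Il1r1 (-1.40), the haptoglobin receptor Cd163 (-2.69), the lipoprotein receptor Scarb1 (-1.12) and haem oxygenase Hmox1 (-3.40). All 11 values are negative. The Hp value includes the higher level of untreated Tmem173iΔmye colon, and Hp was not called between the colitic genotypes. For 10 genes the fitted DSS change was positive in both genotypes and smaller in Tmem173iΔmye colon, while that of Scarb1, called in neither, was 0.89 in Tmem173fl/fl and -0.30 in Tmem173iΔmye colon. All rest on the same 12 libraries.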

How the results depend on the processing

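Saa3, Lcn2, Hp, Lrg1 and Cp were called higher with DSS in Tmem173fl/fl colon under each alternative and with each library left out. Saa2 reached the filter only through colitic libraries, so its calls are not counted with theirs. Where fitted on its own it was called too, except with limma on log2(FPKM + 1) (0.60). In Tmem173iΔmye colon the count of 4 became 1 with limma at either pseudocount and lay between 1 and 5 with a library left out. It became 7 (Saa2 included) at the unadjusted threshold of the study's supplementary methods, called the study's threshold below. For the colitic genotypes a figure legend of the study states an adjusted p instead. Between untreated genotypes the count of 0 became 1 with no filter and 2 at the study's threshold, and stayed 0 with each library left out. Between colitic genotypes the count of 3 became 5 with DESeq2, with no filter and with all 12 libraries in 1 fit, 6 at the study's threshold and 0 with limma at either pseudocount, and lay between 0 and 4 with a library left out. The interaction count lay between 2 and 5 with a library left out. The cause of these changes was not tested. Same-numbered libraries did not deviate together (correlations of deviations from -0.172 to 0.184), so the replicate numbers were not taken as pairs. With a replicate block the counts were 6 (Saa2 included), 5, 2, 5 and 5 in the 5 comparisons, the 2 between untreated genotypes being Hp and Lrg1. Signs turned only with a library left out and in results that were not called: between untreated genotypes Cp ranged from -0.038 to 0.49 and Saa3 from -0.27 to 1.70. The fitted Saa2 values, which rest on untreated groups at the floor and are not read as folds, spanned -1.71 to 1.12 without DSS and, in the interaction, -2.79 to 0.046. Scaling by library totals moved the median of all genes by 0.165 for DSS in Tmem173fl/fl colon and by -0.126 in the interaction and turned no sign of the 7 genes. With 3 libraries a group, Saa2, at 0 to 30 counts, is limited by depth.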

Other observations

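Among the 12 cytokines, 3 had the same sign as Saa1 between colitic genotypes, higher in Tmem173iΔmye colon, and the other 9 the sign of Il6. They were picked out after their values were seen, and none was called by edgeR in that comparison. Tnf averaged 6.18 ± 2.57 CPM (Tmem173fl/fl) and 14.1 ± 1.77 CPM (Tmem173iΔmye), a log2 fold change of 1.18 (SE 0.33, edgeR adjusted p 0.0969). Il22, an epithelium-directed cytokine, averaged 0.391 ± 0.171 and 1.44 ± 1.11 CPM (1.83, SE 0.82, edgeR adjusted p 0.255), and Il17f 0.188 ± 0.172 and 0.566 ± 0.181 CPM (1.55, SE 0.78, edgeR adjusted p 0.31; SD, n = 3 each). Both reached the filter only through colitic libraries. Over the 3 colitic Tmem173fl/fl libraries Il22 had 22 counts and Il17f 10, just above the floor of 9, so these fitted values are uncertain. Tnf was called higher with DSS in Tmem173iΔmye colon (1.62, SE 0.33, edgeR adjusted p 0.036) and not in Tmem173fl/fl colon (0.86, SE 0.34, edgeR adjusted p 0.0743). Its interaction was 0.84 (SE 0.48, edgeR adjusted p 0.38), so the genotypes were not shown to differ in it.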
